A study of Mus musculus with 8 samples.

Results

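The chief cell digestive genes examined here were *Pgc*, *Chia*, *Gif*, *Pga5* and *Bhlha15*, chosen by gene symbol, and all 5 were found among the 23361 genes of the expression table. Expression was measured by RNA sequencing of total RNA, after selection of polyadenylated RNA, in 5 cancers of the mouse gastric squamous-columnar junction (SCJ) and in 3 samples of SCJ control tissue. The SCJ is the border at which the squamous lining of the forestomach meets the glandular lining. Cancers carried the genotype Trp53-/-Rb1-/-, and control tissue was wild type. In the cancers, floxed alleles of both tumor suppressor genes were removed by a tamoxifen-inducible Cre recombinase expressed from the *Lgr5* locus, in mice that also carried the Ai9 tdTomato reporter used to find the border of each lesion. The controls came from age-paired wild-type stomachs, so that the Cre and reporter alleles differ between the groups together with the deleted genes, and the study's methods state tamoxifen injection for control mice of tumor induction without naming these wild-type stomachs. Bulk tumor tissue also holds stroma and neighboring epithelium, and the labels do not say from which animal each sample came, so p-values measure the spread between these samples.

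Chief cells lie at the base of glands in the body of the stomach and release the stored precursors of digestive enzymes, called zymogens. Pepsinogens are aspartic protease precursors that acid turns into pepsin, and in the mouse chief cells also make gastric intrinsic factor, which binds vitamin B12 (cobalamin), and an acidic chitinase that digests chitin. The transcription factor MIST1 shapes their secretory granules, and neck mucous cells of the same gland are regarded as their precursors.

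The most abundant members, *Gif*, *Chia* and *Pgc*, were lower in the cancers wherever a control value above 0 was listed. *Pgc* was listed at 0 in controls 2 and 3, and *Chia* in control 2. As deposited, *Pgc* was higher in the cancers, with a log2 fold change of 4.05 (adjusted p = 0.432 in limma). With its listed zeros treated as missing, which leaves 1 control, the log2 fold change of *Pgc* was -5.83. *Gif* lay below every control in all 5 cancers, and the highest cancer reached 20.15% of the lowest control. The highest cancer reached 21.19% of the lowest control above 0 for *Chia* and 23.45% of the only control above 0 for *Pgc*. As shares of each library's FPKM sum, which was lower in the cancers, these values were 33.6% for *Gif*, 36.2% for *Chia* and 40.0% for *Pgc*, and all 5 cancers still lay below those controls. *Pga5* was low in 4 cancers and above every control in the other one. *Bhlha15*, a low transcript, was the only member past the threshold of an adjusted p of 0.05 in limma, among 14357 genes tested, of which 18.3% were called lower, 16.2% higher and 34.5% in either direction. In bulk tissue, fewer chief cells and less RNA per chief cell cannot be told apart. With 1 of 5 called lower, the share of members called was near that of all genes.

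The values are FPKM (fragments scaled by transcript length and by library), which are per length and can be compared between genes, and were deposited as whole numbers. Depth was not recoverable from them. Fold changes are on the log2(FPKM + 1) scale, which understates the change of low genes. FPKM summed to between 403569 and 573858 in cancers and between 887141 and 992550 in controls, and rescaling every library to the same sum (TPM) moved the median change over all genes tested from -0.038 to 0.81 on the log2 scale. A gene listed at 0 may be a failed estimate, and only *Pgc* and *Chia* were listed at 0 in a control while the median of the other controls was at least 100 FPKM. In the library of cancer 1, 20 genes were listed at 0 while the median of the other cancers reached 100 FPKM, *Gif* among them. Genes that every cell uses, 8 of them picked after their values were seen, were listed at 0 in 0 libraries, with *Actb* between 581 and 2173 FPKM. Of the deleted genes, *Rb1* was at 4 to 6 FPKM in cancers and 9 to 10 in controls, and *Trp53* was at 12 to 30 and 16 to 19. As a share of the library's sum the groups overlapped for *Rb1*, at 0.000697 to 0.00114% in cancers and 0.000942 to 0.00101% in controls, and *Trp53* was higher in every cancer, at 0.00269 to 0.00536% and 0.00167 to 0.00192%. The control tissue held both linings, with the squamous keratin *Krt5* at 128 to 203 FPKM and the parietal cell proton pump subunit *Atp4a* at 1643 to 3572 FPKM.

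The bases just before the transcription start of 4 members are shown, because the gene set was defined by its cell type and one member, MIST1, binds E-boxes. Each line gives the 250 bases before the start on the strand of the gene (RefSeq, GRCm38.p6), 5′ to 3′, and *Pga5* is named only. The start used is that of the deposited locus, and for *Gif* the RefSeq gene, over all its transcripts, begins at 11747543, inside the window shown. Capitals mark TATAAA and the E-box CANNTG, both searched on both strands.
Pgc (chr17:47726592-47726841, plus strand): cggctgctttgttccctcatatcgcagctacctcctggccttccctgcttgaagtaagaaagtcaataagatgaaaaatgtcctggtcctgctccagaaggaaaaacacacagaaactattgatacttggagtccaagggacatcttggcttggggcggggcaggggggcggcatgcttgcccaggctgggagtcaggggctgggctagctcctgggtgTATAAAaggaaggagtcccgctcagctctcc
Chia (chr3:106113132-106113381, plus strand): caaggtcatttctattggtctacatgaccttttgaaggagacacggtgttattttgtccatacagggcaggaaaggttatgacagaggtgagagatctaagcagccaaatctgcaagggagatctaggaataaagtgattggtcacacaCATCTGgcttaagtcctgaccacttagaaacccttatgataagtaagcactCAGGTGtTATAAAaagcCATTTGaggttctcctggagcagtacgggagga
Gif (chr19:11747309-11747558, plus strand): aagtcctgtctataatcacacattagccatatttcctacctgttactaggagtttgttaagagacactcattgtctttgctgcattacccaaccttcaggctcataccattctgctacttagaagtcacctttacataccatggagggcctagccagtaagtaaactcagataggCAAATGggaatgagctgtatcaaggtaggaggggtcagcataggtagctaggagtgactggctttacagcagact
Bhlha15 (chr5:144190036-144190285, plus strand): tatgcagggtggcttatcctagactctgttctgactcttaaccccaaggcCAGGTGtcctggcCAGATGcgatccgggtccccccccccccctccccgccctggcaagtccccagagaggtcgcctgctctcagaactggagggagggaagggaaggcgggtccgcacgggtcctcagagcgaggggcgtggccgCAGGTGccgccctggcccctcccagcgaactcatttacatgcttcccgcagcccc
TATAAA began 31 bases before the start of *Pgc* and 43 before that of *Chia*, and 12.4% of 32851 promoter windows of the same length held it. CANNTG was found 3 times each before *Chia* and *Bhlha15*, once before *Gif* and not before *Pgc*, and 66.2% of all windows held it. In *Chia*, 1 base separated the E-box CAGGTG from TATAAA. The matches describe the letters of these windows and no binding was measured.

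*Gif* (RefSeq symbol *Cblif*, chromosome 19, 11747559 to 11763447, plus strand, mm10) encodes gastric intrinsic factor, the carrier of vitamin B12. It was listed at 0, 520, 36, 434 and 178 FPKM in cancers 1 to 5 and at 2581, 4982 and 3374 FPKM in controls 1 to 3, so that the groups did not overlap. Controls averaged 3646 ± 1223 FPKM (SD, n = 3), and the median control was 18.96-fold above the median cancer in FPKM and 8.51-fold above it as a share of the library's sum. Every cancer lay below every control for 19.8% of the genes tested, and above every control for 14.4%. The log2 fold change of *Gif* came to -5.68 (adjusted p = 0.0563 in limma, standard error 1.97), and to -4.97 with TPM (adjusted p = 0.064 in limma). The two-sided exact permutation test of the mean log2 difference gave p = 0.0536 over 56 splits, where the smallest possible p is 0.018. The cancers were spread widely, and cancer 1, listed at 0, set much of that spread. Without cancer 1 the log2 fold change was -4.16 (adjusted p = 0.0207 in limma), and the exact permutation test gave p = 0.0286, the smallest that 4 against 3 samples allow. Leaving out cancer 2 instead also took it past the threshold (-6.42, adjusted p = 0.0488 in limma), and the other 6 of the 8 fits with a library left out missed it (adjusted p between 0.0535 and 0.145 in limma). *Gif* ranked 27, 7 and 13 in abundance among all genes of the 3 controls, and 166, 1776, 203 and 349 in cancers 2 to 5.

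*Chia* (RefSeq symbol *Chia1*, chromosome 3, 106113382 to 106132116, plus strand, 11 exons) encodes the acidic mammalian chitinase. It was at 1, 187, 33, 3183 and 424 FPKM in cancers 1 to 5, at 15020 and 26833 FPKM in controls 1 and 3, and listed at 0 in control 2. All 5 cancers lay below both controls above 0, and cancer 4 stood above the other cancers. With the values as deposited the log2 fold change of *Chia* was -2.73 with a standard error of 3.72 (adjusted p = 0.587 in limma, exact permutation p = 0.5). With the listed 0 of control 2 treated as missing it was -7.49 with a standard error of 2.59 (adjusted p = 0.062 in limma), and the exact permutation test gave p = 0.0952, where the smallest possible was 0.048. Neither reached the threshold. As deposited the value rested on single libraries, at -7.49 without control 2, -0.55 without control 1, -0.14 without control 3 and -1.28 without cancer 1. Without cancer 4, with the same value missing, the log2 fold change was -8.70 (adjusted p = 0.0318 in limma), the only one of 8 such fits to pass, and the other 7 had an adjusted p between 0.0514 and 0.212 in limma. Control 2 had *Gif* at 4982 FPKM, the highest of the 3 controls, while *Chia* and *Pgc* were listed at 0 there.

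*Pgc* (chromosome 17, 47726842 to 47734478, plus strand, 9 exons) encodes pepsinogen C, also called progastricsin. It was at 3, 4546, 581, 6762 and 468 FPKM in cancers 1 to 5 and at 28832 FPKM in control 1, and it was listed at 0 in controls 2 and 3. The direction rests on how these listed zeros are read. As deposited, *Pgc* had a log2 fold change of 4.05 with a standard error of 3.88 (adjusted p = 0.432 in limma, exact permutation p = 0.429), which became 1.58 without control 2 or 3 and 8.99 without control 1 (adjusted p = 0.0689 in limma). With the zeros of controls 2 and 3 treated as missing it was -5.83 with a standard error of 3.91 (adjusted p = 0.282 in limma), which leaves 1 control that is assumed to vary like the other samples. The exact permutation test of 5 against 1 gave p = 0.333 and cannot go below 0.17. *Pgc* was among the most abundant transcripts of 2 cancers, ranking 7 in cancer 2 and 6 in cancer 4, as against 6 in control 1. In cancer 1 it ranked 9936.

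*Pga5* (chromosome 19, 10668957 to 10678071, minus strand) encodes pepsinogen A, the other pepsinogen of the set. It was listed at 0, 6, 7, 111 and 1 FPKM in cancers 1 to 5 and was at 63, 47 and 62 FPKM in the controls. Controls varied little, with a mean of 57.3 ± 8.96 FPKM (SD, n = 3). Cancer 4 lay above all 3 controls and the other 4 cancers lay below them. For *Pga5* the log2 fold change was -3.13 with a standard error of 1.37 (adjusted p = 0.109 in limma, exact permutation p = 0.125). Without cancer 4 it was -4.15 (adjusted p = 0.0102 in limma, exact permutation p = 0.0286), the only one of 8 fits with a library left out to pass. The gene for chymosin, the aspartic protease *Cym*, which was picked after its values were seen, was also highest in cancer 4, at 388 FPKM as against 55 to 98 in controls and 0 to 24 in the other cancers.

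*Bhlha15* (chromosome 5, 144190286 to 144194441, plus strand, 2 exons) encodes MIST1, the basic helix-loop-helix factor of zymogen-secreting cells. It was at 9, 3, 4, 2 and 8 FPKM in cancers 1 to 5 and at 8, 17 and 26 FPKM in controls 1 to 3. The groups overlapped, with 3 of 5 cancers below every control and cancer 1 above control 1. As a share of the library's sum, 2 of 5 cancers lay below every control. The highest cancer then reached 266% of the lowest control. The median control was 4.25-fold above the median cancer in FPKM and 2.1-fold above it as a share. The mean was 5.2 ± 3.11 FPKM over the cancers (SD, n = 5) and 17.0 ± 9.0 FPKM over the controls (SD, n = 3). The cancers were lower by a log2 fold change of -1.55 with a standard error of 0.50 (adjusted p = 0.0465 in limma), while the exact permutation test gave p = 0.0714. The call depends on the scaling. With TPM the log2 fold change was -0.72 (adjusted p = 0.316 in limma), against a median of 0.81 for all genes. It passed the threshold in 3 of the 8 fits that each left out a library, and missed it without cancer 2, 3 or 4 or without control 2 or 3 (adjusted p between 0.0727 and 0.159 in limma).

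**Figure D1:**
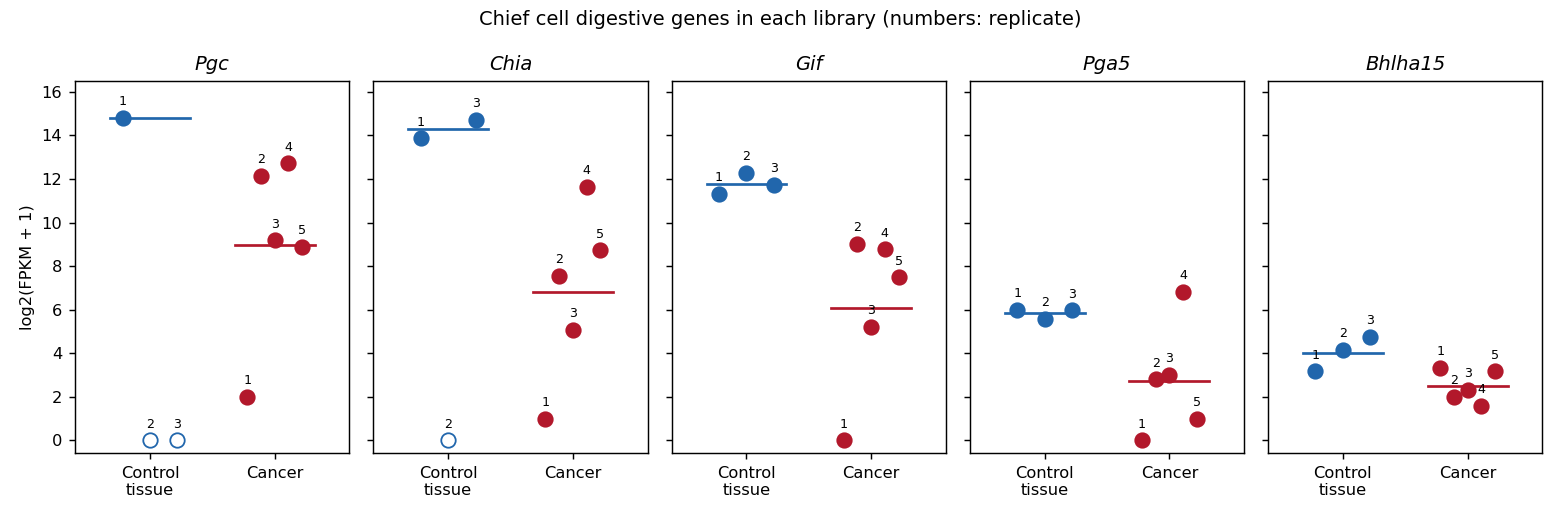
Expression of the 5 genes in each library, as log2(FPKM + 1), with control tissue in blue and cancers in red, numbered by replicate. Open circles are control values listed at 0 and short lines are group means of the log2 values without the open circles. All 5 cancers lie below the controls above 0 for *Pgc*, *Chia* and *Gif*, cancer 4 lies above the controls for *Pga5*, and the *Bhlha15* groups overlap.

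**Figure D2:**
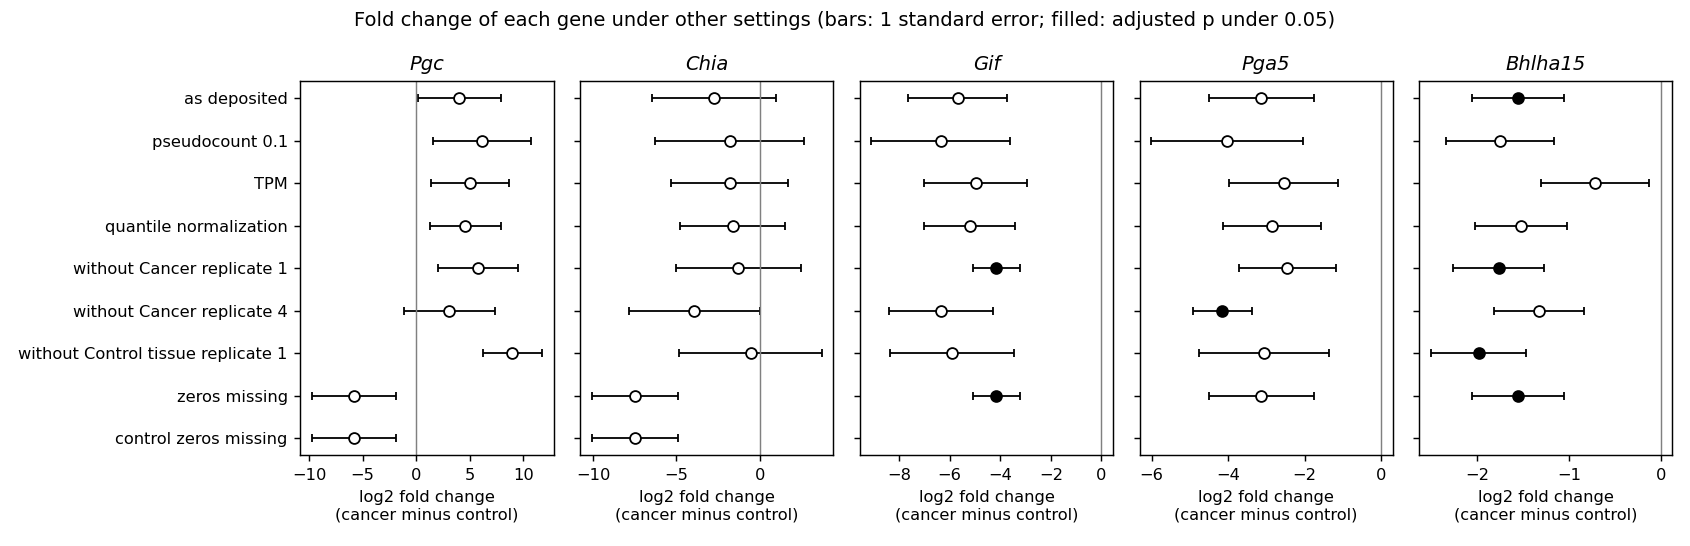
Log2 fold change (cancer minus control) of each gene under several settings, with bars of 1 standard error and filled points where the adjusted p in limma was under 0.05. The bottom setting is drawn only for *Pgc* and *Chia*, the genes with a control value treated as missing. *Pgc* moves from 4.05 to -5.83 when the listed control zeros are treated as missing, and the other genes stay below 0.

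The members varied in different proportions among the cancers. Their summed FPKM took 0.00322, 0.917, 0.151, 1.87 and 0.242% of the total in cancers 1 to 5 and 4.87, 0.569 and 3.05% in the controls, where the zeros of controls 2 and 3 lower the sum. Cancer 1 was lowest for *Pgc*, *Chia*, *Gif* and *Pga5* but highest of the cancers for *Bhlha15*. Cancer 4 was highest for *Pgc*, *Chia* and *Pga5* and lowest for *Bhlha15*. The order of the members also changed between cancers. The ratio of *Pgc* to *Chia*, which does not depend on the scaling of libraries, was 24.3 in cancer 2, 17.6 in cancer 3, 2.12 in cancer 4, 1.10 in cancer 5 and 1.92 in control 1. *Chia* was 0.36 times *Gif* in cancer 2 and 7.33 times *Gif* in cancer 4, beside 5.82 and 7.95 in controls 1 and 3. *Gif* was 5.14 times *Pga5* in cancer 3 and 3.91 times in cancer 4, as against 86.7 and 178 in cancers 2 and 5 and 41.0, 106 and 54.4 in the controls.

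Differences in change were tested for the 3 pairs without a control listed at 0, keeping the 0 of *Gif* in cancer 1, where *Pgc*, *Chia* and *Pga5* were also at 0 to 3 FPKM. The mean log2 ratio of *Gif* to *Bhlha15* was 3.62 ± 4.29 over the cancers (SD, n = 5) and 7.75 ± 0.68 over the controls (SD, n = 3), a difference of -4.13 (exact permutation p = 0.161, adjusted p = 0.375 over 3 pairs). *Gif* to *Pga5* differed by -2.55 (exact permutation p = 0.25, adjusted p = 0.375) and *Pga5* to *Bhlha15* by -1.58 (exact permutation p = 0.429, adjusted p = 0.429). None of the 3 differences was larger than the spread between samples. Single libraries moved them, that of *Gif* to *Bhlha15* to -2.40 without cancer 1, and that of *Pga5* to *Bhlha15* to -0.69 without cancer 1, -0.98 without cancer 5 and -2.82 without cancer 4.

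**Figure D3:**
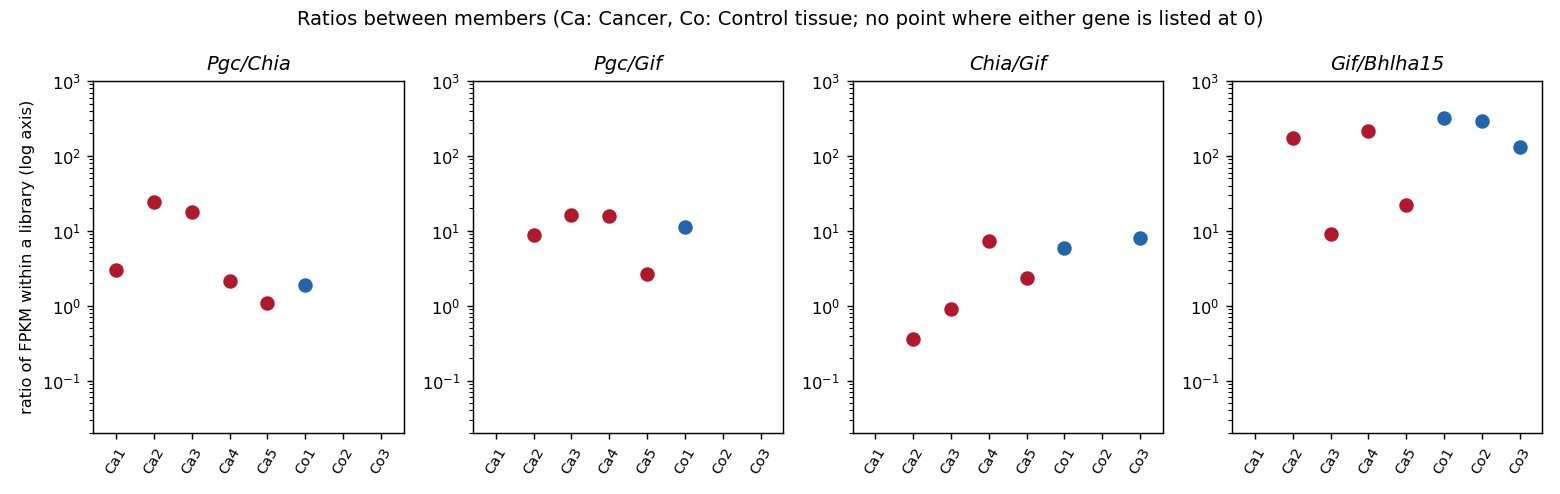
Ratio of FPKM between 2 members within each library, on a log axis, for cancers (red) and control tissue (blue); no point is drawn where either gene is listed at 0. The ratio of *Pgc* to *Chia* spans 1.10 to 24.3 among cancers, and that of *Chia* to *Gif* 0.36 to 7.33.

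Genes with the most similar profiles were found by the root mean square difference of centered log2 values, which is given as a description. For *Gif*, over the 7 samples without cancer 1, they were *Pnliprp2*, a lipase (0.49), *Pdia2*, a protein disulfide isomerase (0.57), and *Slc26a9*, an ion transporter (0.59). For *Chia*, over the 7 samples without control 2, they were *Pla2g1b*, a secreted phospholipase (0.93), *Clps*, the lipase cofactor colipase (1.06), and *Gif* itself (1.54). *Clps* was at 3, 3043, 234, 9087 and 669 FPKM in the cancers and at 74893, 148172 and 117206 FPKM in the controls. For *Pgc*, over 6 samples, they were the pit cell gene *Psca* (0.49), the proton pump subunit *Atp4b* (0.60) and ghrelin, *Ghrl* (0.61). For *Pga5* they were *Chi3l4* (0.64), *Apoa1* (0.67) and *Cox7a1* (0.81) over all 8 samples. *Bhlha15* was nearest to *Sorl1* (0.30), *Deptor* (0.34) and *Fads6* (0.40) over all 8 samples. Over the 7 samples without cancer 1, *Bhlha15* was the gene ranked 1533 in closeness to *Gif* (1.85), where the median gene lay at 2.38. Over all 8 samples, cancer 1 included, *Gif* was the gene ranked 14323 in closeness to *Bhlha15* (3.65), where the median gene lay at 1.09. *Pga5* was the gene ranked 14091 by the same measure (2.5). Over the 6 samples where *Pgc* was not listed at a doubtful 0, *Gif* was the gene ranked 9 in closeness to it (0.98). *Chia* was the gene ranked 36 (1.71) and *Pga5* the gene ranked 115 (2.44), where the median gene lay at 4.12. *Bhlha15* lay farther from *Pgc* than the median gene did, at rank 11774 (4.45). *Bhlha15* had the narrowest range of the members, at 2 to 26 FPKM over all 8 libraries.

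Among the other digestive enzyme genes, none of 3 tested passed the threshold. *Lipf*, gastric lipase, picked after its values were seen, was at 6, 4, 2, 1 and 1 FPKM in cancers and 1, 0 and 0 FPKM in controls (log2 fold change 1.41, adjusted p = 0.056 in limma), and by TPM it was the 1 gene of the 3 that passed, higher in cancers (2.18, adjusted p = 0.0144 in limma). *Ctse*, cathepsin E, was at 96, 766, 40, 452 and 281 FPKM in cancers and 1364, 964 and 1342 FPKM in controls (log2 fold change -2.54, adjusted p = 0.0626 in limma), without overlap. Calls in the lists of genes around the members depend on the scaling, and with TPM 7176 of all genes tested were higher and 528 lower. Of 8 aspartic protease genes tested, 1 rose and 1 fell, and with TPM 2 were higher and 0 lower. *Napsa*, napsin A, rose from 0 in every control to 22, 2, 4, 2 and 3 FPKM (adjusted p = 0.0263 in limma), and the lysosomal protease *Ctsd* fell, from 550 to 728 FPKM in controls down to 216 to 395 in cancers (adjusted p = 0.0174 in limma), with a log2 fold change of -0.02 by TPM. Of 6 chitinase family (glycoside hydrolase 18) genes tested, 0 rose and 1 fell, the chitinase-like *Chi3l4*, at 0, 7, 4, 92 and 3 FPKM in cancers and 161, 85 and 100 FPKM in controls (adjusted p = 0.043 in limma), and by TPM 3 were higher and 0 lower. Cancer 4 was again the highest cancer. *Chi3l4* shares much sequence with *Chi3l3*, and how reads were divided between them is not known.

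Of 8 genes tested for cobalamin binding and uptake, 0 rose and 5 fell, beside 18.3% of all genes called lower, while *Gif* itself did not pass. By TPM 1 of the 8 was lower, *Mut* (-0.71, adjusted p = 0.0307 in limma), and *Lmbrd1*, one of the 5, turned to 0.29 (adjusted p = 0.255 in limma). The largest falls were those of *Mut*, the mitochondrial methylmalonyl-CoA mutase (log2 fold change -1.63, adjusted p = 0.00141 in limma), at 9 to 13 FPKM in cancers and 30 to 46 in controls, and of *Abcd4*, a lysosomal transporter (-1.41, adjusted p = 0.0165 in limma). The list's median log2 fold change was -1.09, beside -0.038 for all genes tested, and -0.22 by TPM beside 0.81. *Cubn* and *Amn*, the subunits of the intestinal receptor for intrinsic factor, were listed at 0 in all 8 libraries. Of 5 genes that MIST1 controls or that act with it in granule maturation, 1 rose and 1 fell, and by TPM 3 were higher and 0 lower. The granule GTPase *Rab3d* fell by 1.06 on the log2 scale (adjusted p = 0.0183 in limma), and the calcium pump *Atp2c2* rose by 1.25 (adjusted p = 0.0259 in limma). The gap junction gene *Gjb1* was at 0 to 127 FPKM in cancers and 144 to 241 FPKM in controls, and *Xbp1*, the secretory stress factor, at 153 to 317 and 174 to 229 FPKM. Of 6 receptors that control zymogen release, 1 rose and 3 fell, beside 16.2% of all genes called higher and 18.3% lower. By TPM 1 receptor was higher and 2 were lower. The cholecystokinin receptor *Cckar* was at 0, 2, 0, 9 and 2 FPKM in cancers and 24, 47 and 36 FPKM in controls (log2 fold change -3.85, adjusted p = 0.00864 in limma). The secretin receptor *Sctr* (-3.01, adjusted p = 0.0239 in limma) and the muscarinic receptor *Chrm3* (-1.49, adjusted p = 0.0125 in limma) fell as well. By TPM *Chrm3* did not pass (-1.07, adjusted p = 0.0809 in limma). *Vipr1*, the receptor for vasoactive intestinal peptide, rose (2.96, adjusted p = 0.0062 in limma), with 6 to 38 FPKM in cancers and 1 to 2 in controls.

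The summed FPKM of the parietal and of the pit cell genes lay below every control in all cancers. Of the 8 single parietal cell genes 6 did so, beside 19.8% of all genes tested. Among the members, *Gif* did so, *Chia* and *Pgc* lay below only the controls above 0, and *Pga5* and *Bhlha15* overlapped the controls. The sums of neck mucous and smooth muscle genes were not lower in every cancer. The part of any of these cells in the members' values was not tested. By TPM the calls in these lists were 3 lower of the parietal, 1 of the pit, 1 of the squamous, 3 of the pancreatic and 0 of the plasma cell genes, with 1 plasma cell gene and all 6 neuroendocrine genes higher. The summed level of 8 parietal cell genes was at 1, 1100, 193, 2368 and 147 FPKM in cancers and 4433 to 8032 FPKM in controls, and 5 of the 8 fell, with the largest log2 fold changes among those 5 in *Clic6* (-4.45) and *Slc26a9* (-4.04). The proton pump subunits *Atp4a* (-5.34, adjusted p = 0.0684 in limma) and *Atp4b* (-5.29, adjusted p = 0.0881 in limma) did not pass the threshold. The 6 pit cell genes were at 692 to 69028 FPKM in sum in the cancers and 156418 to 225682 FPKM in the controls. Each of the 6 lay below every control in all cancers, beside 19.8% of all genes tested. Of the 6 pit cell genes 1, *Gkn1*, passed the threshold (-3.81, adjusted p = 0.0336 in limma), beside 18.3% of all genes called lower. The neck mucous cell genes did not follow the chief cell genes in cancer 2. Their sum there was 8889 FPKM, with *Tff2* at 7031 FPKM, as against 2320 to 3778 FPKM in controls. In cancer 4 their sum was 99.6% of the control median, where the members were at 11.8 to 23.5% except *Pga5* at 179%. In cancer 5 it was 51.9%, where the members were at 1.61 to 5.28% except *Bhlha15* at 47.1%. Of the 4 neck mucous cell genes 0 passed the threshold. The sum in cancer 1 was 3 FPKM. Of 8 squamous genes 1 fell, *Lor*, and their sum was 1 to 1625 FPKM in cancers and 1816 to 2991 FPKM in controls, highest among cancers in cancer 4. Smooth muscle genes were at 1692 FPKM in sum in cancer 2 and at 43 in cancer 1, beside 355 to 549 FPKM in controls, and 0 of 6 passed. All 6 neuroendocrine genes rose, with *Chgb* at 1725 to 7002 FPKM in cancers and 7 to 21 FPKM in controls.

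**Figure D4:**
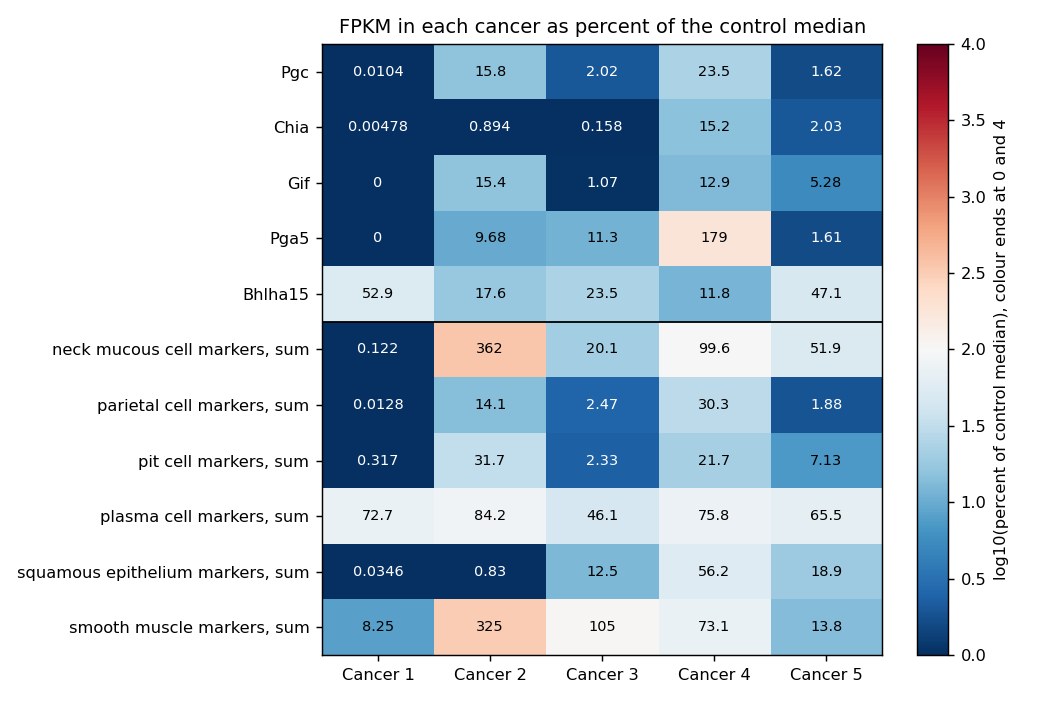
FPKM of each member and of 6 summed marker lists in each cancer, as percent of the median over controls (colour: log10 of the percent; numbers: the percent itself; listed control zeros of *Pgc* and *Chia* left out). Cancer 1 is at 0.0128% for parietal and 0.317% for pit cell genes and at 52.9% for *Bhlha15*, and *Pga5* in cancer 4 is at 179%.

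MIST1 is also made by plasma cells and by the acinar cells of the pancreas. In cancer 1, where *Bhlha15* was the highest of the cancers, the plasma cell genes *Pou2af1* and *Mzb1* were at 20 and 11 FPKM. Both were picked after their values were seen. They were at 0 to 1 and 1 to 3 FPKM in the other cancers and at 0 and 0 to 1 FPKM in controls. In cancer 5, where *Bhlha15* was at 8 FPKM beside 9 in cancer 1, *Pou2af1* was at 0 and *Mzb1* at 1 FPKM. A link between *Bhlha15* and the plasma cell list was not tested. Of the other genes of that list, *Irf4* was at 2 FPKM in cancer 1 and 0 elsewhere, whereas *Igj* (28 FPKM in cancer 1 and 33 in cancer 3), *Sdc1* (56 and up to 128), *Prdm1* (1 and up to 2) and *Derl3* (2 and up to 4) were not highest in cancer 1. The sum of the list in cancer 1, 120 FPKM, lay below those of cancers 2 and 4, 139 and 125 FPKM. Of 6 plasma cell genes tested 2 fell, *Prdm1* and *Derl3*, and their list summed to 76 to 139 FPKM in cancers and 153 to 187 FPKM in controls. *Tnfrsf17*, a plasma cell receptor, was listed at 0 in all libraries. Of 13 pancreatic acinar genes, 5 were tested and 4 fell, from 12 FPKM at most (*Cela2a*, *Pnlip*, *Cel* and *Ptf1a*). The defining genes *Cpa1*, *Amy2b*, *Prss2* and *Rbpjl* were listed at 0 in all 8 libraries. The elastase gene *Cela1*, which was picked after its values were seen, was at 287 FPKM in cancer 2 and 53 to 84 FPKM in controls.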

How the data were processed

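RNA was sequenced from 5 SCJ cancers and 3 SCJ control tissues, grouped by their titles. Per the labels, directional libraries were made from polyadenylated RNA, and the submitters' processing notes name cutadapt 1.8, TopHat2 2.0.13, Cuffnorm 2.2.1 and mm10. Cuffquant was also used on UCSC mm10 genes, and the normalization option of Cuffnorm is not given in the sources used here. The values the authors deposited are FPKM that they had rounded (100% were whole), so each was handled as a score and no count model was used. Depth is unknown, so no counting interval or limit of detection is given.

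A gene was tested where 3 or more samples had at least 1 FPKM (14357 of 23361 genes, all 5 members included). The test was limma 3.58.1 in R 4.3.3, by lmFit and trended eBayes, on log2(FPKM + 1), and p-values were adjusted over all tested genes by Benjamini-Hochberg with a threshold of 0.05. Members were also compared by two-sided exact permutation tests of mean log2 differences over all 56 ways to label 5 of 8 samples as cancers. The limma fit was tried on simulated data, and the permutation test on fixed values only. Listed zeros were treated as missing, as an alternative, where the median of the other samples of the group was at least 100 FPKM; treating them so only in controls was added after the data were seen. Pairs of members with a listed control zero were given as values only.

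The members and gene lists were chosen with earlier results of these data known. Genes named are the members, up to 4 genes past the threshold in each list, list genes with a median over 100 FPKM in either group, and the 3 nearest profiles of each member, and several of the abundant markers are given by their list's sum. Outside this rule, the deleted genes, list genes listed at 0 in all libraries, *Chi3l3*, *Lmbrd1* and the other plasma cell genes describe the model or a list. *Actb*, *Cym*, *Cela1*, *Lipf*, *Pou2af1* and *Mzb1* were picked after their values were seen. The members were matched to RefSeq promoters for 4 of 5. Deviations from the group means of a cancer and a control with the same number had correlations of -0.0211, -0.194 and -0.104, so the numbers were not taken to pair the samples.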

Additional observations from a re-analysis of the deposited data

Results flagged for a closer look

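*Pga5* in cancer 4, at 111 FPKM, stood far from the other 4 cancers, at 0 to 7 FPKM. The gap to the nearest of them was 0.937 of the range of the group, above the critical value of 0.71 for 5 samples. *Chia* in cancer 4, at 3183 FPKM beside 1 to 424 FPKM, had a gap of 0.867 of the range. Neither stood apart on the log2 scale. The 10 groups examined were 5 genes on both scales, so they are not separate tests. A chance rate of about 1 in 20 holds for normally distributed values, and both flags came from FPKM without logs.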

How the results depend on the processing

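*Gif*, *Pga5*, *Chia* and *Bhlha15* kept a negative fold change under every alternative that was run. *Pgc* was positive in every fit that kept its listed control zeros (1.58 to 8.99 over left-out libraries) and reversed where they were missing, to -5.83 with all such zeros or only those of controls missing (also without control 2 or 3), -4.88 with TPM as well, and -4.08, -6.62, -5.88, -6.76 and -5.80 without cancers 1 to 5 in turn; without control 1 no value could be fitted there.

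The adjusted p of *Gif* passed the threshold in limma with a mean FPKM of at least 5 (log2 fold change -5.68) and with listed zeros missing (-4.16), and its leave-one-out range was -6.42 to -4.16. *Pga5* ranged from -4.15 to -2.45 and passed only without cancer 4. *Chia* ranged from -7.49 to -0.14 over left-out libraries as deposited and was -0.72 with a pseudocount of 0.01. With control zeros missing it passed with TPM (-6.58, adjusted p = 0.0499 in limma) and ranged from -8.70 to -6.04 over left-out libraries. *Bhlha15* missed the threshold with pseudocounts of 0.1 (-1.75) and 0.01 (-1.78), without a filter (-1.55), with TPM (-0.72), with quantile normalization (-1.52) and with the replicate block (-1.48, adjusted p = 0.2 in limma), and ranged from -1.98 to -1.19 over left-out libraries. The pair differences did not pass under any alternative run, and over left-out libraries they ranged from -5.02 to -2.40 (*Gif* to *Bhlha15*), -2.82 to -0.69 (*Pga5* to *Bhlha15*) and -3.33 to -1.71 (*Gif* to *Pga5*). The cause of these shifts was not tested.

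Of all genes, 4948 were called (2326 higher, 2622 lower), 7704 with TPM (7176 higher, 528 lower), 1534 with the replicate block (982 higher, 552 lower) and 2490 to 5252 with 1 library left out, lowest without control 1. Without control 2 or 3 the count was 2643 or 2815. With quantile normalization 0 aspartic protease and 0 pit cell genes were called, 3 cobalamin genes were lower and 0 of the genes acting with MIST1 were lower. With the mean filter 1244 were higher and 2275 lower. The replicate numbers do not pair the samples, and each control's deviations correlated best with those of cancer 2, 1 and 2. Values rounded to whole FPKM leave few steps for *Bhlha15*, and with unknown depth a value listed at 0 cannot be told from a low level.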
